A study of Mus musculus with 4 samples.

Results

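The response of wild type macrophages to interleukin-4 (IL-4) was read from 2 of the 4 arrays of the series, the array labelled WT IL-4 and the array labelled WT untreated. The difference of both arrays was taken for every probe set and, per gene, for its brightest probe set by the mean over the 4 arrays. Macrophages were washed from the peritoneal cavity of wild type mice that had received thioglycolate, an irritant that draws monocytes into the cavity where they become macrophages. They were then kept on Permanox plastic slides for 18 hours, without addition or with IL-4. The labels give no strain, age, sex, number of mice or IL-4 dose for either group, and the other 2 arrays hold macrophages labelled Dap12-KO. The study asked how loss of the adaptor DAP12 bears on expression at rest and with IL-4, and the wild type pair is its reference response. Each group is 1 array, so every difference below is a value with no test, no replicate error and no p, and the number of arrays limits its precision.

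IL-4 is a cytokine of type 2 immunity, made by T helper cells, basophils and eosinophils. It binds a receptor chain encoded by Il4ra, activates Janus kinases and leads to phosphorylation of STAT6, which enters the nucleus and binds DNA at paired TTC and GAA half-sites. In macrophages this programme is called alternative activation, and it is known for arginase, chitinase-like and mannose-binding proteins and for cell fusion into giant cells.

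Values are log2 levels made by RMA, so a difference of 1 is 2-fold. Of 18193 genes named by a single gene symbol, 12767 reached the median of all values, 6.39, on at least 1 of the 4 arrays and were counted. A value below that floor is close to background, and a difference that starts or ends there has an uncertain size. With IL-4, 155 genes were higher by 2-fold or more and 160 were lower, which is 1.21% and 1.25% of the genes counted (2.47% in either direction). The wider threshold of 1.5-fold was passed by 387 higher genes (3.03%) and 548 lower genes (4.29%), together 7.32%. At 3-fold 61 were higher (0.478%) and 31 lower (0.243%), together 0.721%. The median gene differed by −0.03 and the middle 90% of genes lay between −0.54 and 0.43. Larger differences were more often on the higher side, with 38 genes at 4-fold or more against 8 on the lower side, and 14 against 1 at 8-fold or more.

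**Figure D1:**
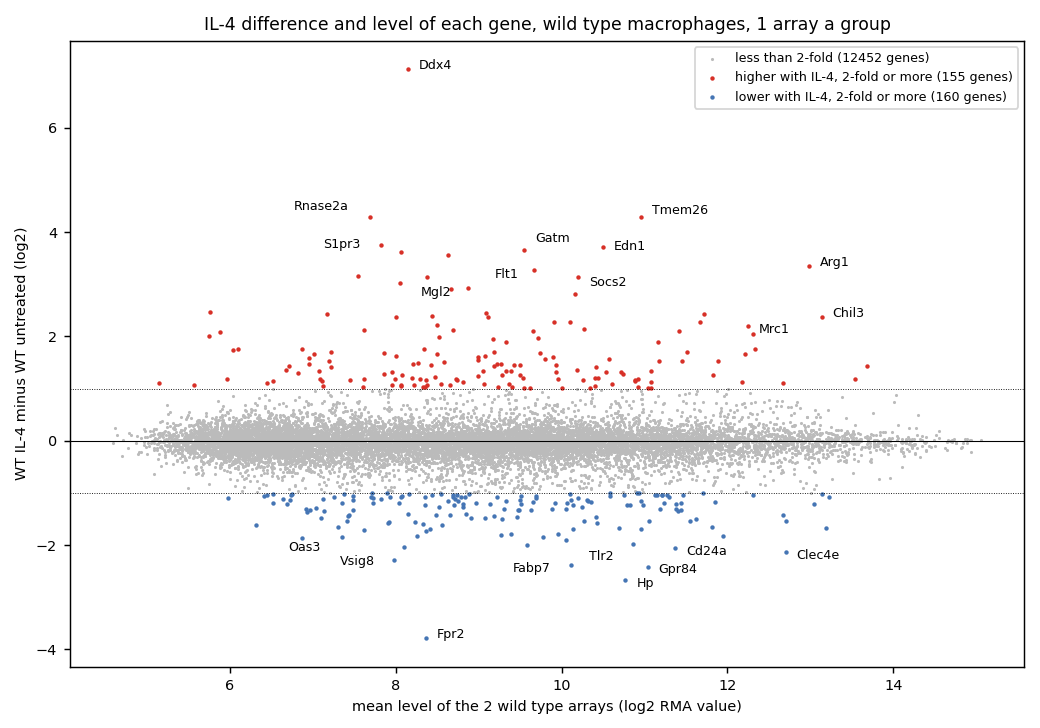
The difference of the wild type IL-4 and untreated arrays (vertical axis, log2) is plotted against the mean level on both (horizontal axis, log2 RMA value) for 12767 genes, 1 point a gene, with red and blue points at 2-fold or more. Ddx4 at 7.13 and Fpr2 at −3.78 lie farthest from 0, and most genes lie within 0.5 of it.

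Genes of basic machinery, most of them bright, give a sense of how closely both arrays read alike at high levels. Across 98 genes for ribosomal proteins, the respiratory chain and the proteasome, the differences ran from −0.26 to 0.31 with an SD of 0.10 over genes. That is a spread between genes of 1 pair of arrays, not between replicates. With all genes counted split into 5 bands of level, the SD was 0.26 in the lowest, 0.45 in the middle and 0.38 in the highest band. Those SDs include any response to IL-4. Control RNAs that are not of mouse origin moved more than the machinery genes. The 18 probe sets for bacterial and phage hybridisation controls differed by −0.00 to 0.36, with a median of 0.24. The 27 probe sets for the Bacillus poly-A controls differed by −0.59 to −0.03, with a median of −0.36. The labels do not say which controls were added, and the part of these shifts in the gene differences was not tested. The 3′ minus 5′ value of the Actb control was 0.39 untreated and 0.43 with IL-4, and that of the Gapdh control 1.42 and 1.54.

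A gene's second brightest probe set gives another look at the same RNA, although it is no replicate. It was above the floor for 64 of the 155 higher genes, where it had the same sign in 61 and reached 2-fold in 39. For the lower genes these were 75 of 160, 70 and 37. Among the 5572 genes of this kind in all, second probe sets were at least 2-fold higher in 0.897% and lower in 1.01%. The genes whose second probe set went the other way were Bcat1, Kbtbd11 and Tmem158 on the higher side and Daam1, Fcrla, Fdps, Ptk2b and Sash1 on the lower side.

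The cells carried macrophage transcripts on both arrays. All 24 measured genes of a macrophage list were above the floor, and Csf1r, the receptor for the growth factor of macrophages, read 14.38 untreated and 14.37 with IL-4. Adgre1, which encodes the F4/80 antigen, read 13.06 on both. Tyrobp, which encodes DAP12, read 14.39 and 14.13. The markers of other cells given next read lower than Csf1r and Adgre1, but not lower than every macrophage gene. Aif1 and Maf of the macrophage list read 8.69 and 9.16 untreated and 8.53 and 9.01 with IL-4. The B cell genes Ighm and Ms4a1 read 9.46 and 8.64 untreated and 9.65 and 9.22 with IL-4. Of 8 measured B cell markers 7 were above the floor, but Pax5 and Vpreb3 only on an array labelled Dap12-KO. A summed level is the log2 of the added unlogged values of all measured members, those below the floor included. It grows with the number of members and is not comparable with the level of a single gene. The summed level of the B cell list was 10.98 and 11.16. Of 11 T and NK cell markers 5 were above the floor. Zap70 read 9.30 and 9.11, and the granule protease Gzma came from 6.22, below the floor, to 7.69, the 1 member at 2-fold. Cd3e read 6.84 and 6.52, Cd4 7.12 and 7.13 and Cd8a 6.77 and 6.58, while Cd3d and Cd3g lay below the floor. The eosinophil genes Prg2 and Epx lay below the floor on both wild type arrays, while Siglecf of the same list read 7.54 and 7.86. The neutrophil genes Ltf, Ngp and Lcn2 also lay below it on both. The neutrophil and monocyte gene S100a8 read 10.09 and 9.20 and the collagenase Mmp8 9.42 on both. Of the 12 neutrophil markers 8 were above the floor, but Mpo, Elane, Ngp and Cxcr2 only on arrays labelled Dap12-KO. The 1 at 2-fold was Csf3r, the receptor for a granulocyte growth factor, from 9.68 to 10.84. Summed levels of the neutrophil, eosinophil and T and NK cell lists were 11.59, 8.68 and 10.42 untreated and 11.80, 8.89 and 10.46 with IL-4. The summed levels of mast cell and mesothelial or fibroblast markers were 10.54 and 10.21 untreated and 10.06 and 10.15 with IL-4. In a bulk sample, fewer cells of a type and less RNA per cell cannot be told apart, and the part of such cells in the differences was not tested.

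To show the DNA that the genes below carry in front of their start sites, the 250 bases upstream of the annotated start were read from RefSeq promoters of build GRCm38.p6 and searched on both strands. Among the 96 genes higher by 2-fold with a single promoter entry, 12 held the STAT6-type letters, TTC and GAA with any 4 bases between, or 12.5%, against 5 of 103 lower genes and 380 of 8234 genes counted (4.62%). Of all 22862 genes with 1 entry in the table, 5.97% held them. Other letters searched were also more frequent among the higher genes than among all genes counted. The SRE-type letters CACCCCAC were in 6 of 96 (6.25%) against 2.66%, and the interferon response letters described further on in 5 of 96 (5.21%) against 2.58%. The contrast is therefore not particular to the STAT6-type letters. Matches of these letters in a promoter describe the sequence, not a bound site. Of the 12 promoters 4 are shown because their genes stand among the results below, each on the strand of its gene, with the matching letters in capitals. They belong to Tmem26 (chr10:68723496-68723745, plus strand, 2 matches), Edn1 (chr13:42301226-42301475, plus strand), Plekhf1 (chr7:38227995-38228244, minus strand) and Ccl17 (chr8:94810203-94810452, plus strand).
Tmem26: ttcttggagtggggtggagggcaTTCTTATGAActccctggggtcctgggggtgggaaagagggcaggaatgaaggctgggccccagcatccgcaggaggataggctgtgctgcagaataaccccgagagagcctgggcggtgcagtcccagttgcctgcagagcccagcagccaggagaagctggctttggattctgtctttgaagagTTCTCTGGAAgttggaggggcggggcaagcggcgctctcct
Edn1: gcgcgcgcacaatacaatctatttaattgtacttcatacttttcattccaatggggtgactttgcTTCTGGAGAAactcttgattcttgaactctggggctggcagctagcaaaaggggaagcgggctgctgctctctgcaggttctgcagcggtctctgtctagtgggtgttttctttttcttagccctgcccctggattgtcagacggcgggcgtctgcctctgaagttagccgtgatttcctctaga
Plekhf1: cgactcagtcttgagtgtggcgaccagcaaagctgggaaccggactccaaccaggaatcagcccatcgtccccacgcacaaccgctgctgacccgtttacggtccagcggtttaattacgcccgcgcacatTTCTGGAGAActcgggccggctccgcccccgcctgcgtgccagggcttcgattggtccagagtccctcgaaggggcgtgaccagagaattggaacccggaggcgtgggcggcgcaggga
Ccl17: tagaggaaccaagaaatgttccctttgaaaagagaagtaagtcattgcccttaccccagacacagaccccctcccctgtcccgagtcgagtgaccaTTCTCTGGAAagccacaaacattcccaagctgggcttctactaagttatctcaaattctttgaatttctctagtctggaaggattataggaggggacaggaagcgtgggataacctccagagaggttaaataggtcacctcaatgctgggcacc
The matches in the promoters of Edn1 and Plekhf1 have the same letters, TTCTGGAGAA, 185 and 119 bases before the start. Tmem26 and Ccl17 share TTCTCTGGAA, which lies 41 and 154 bases before the start.

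Genes of alternative activation had the highest median of the 62 lists examined. The list was drawn up with earlier results of these data known and holds several genes at the top of this comparison, so its rank and counts are a description and no independent evidence of its direction. Of 35 measured members of this list, all above the floor, 23 were higher by 2-fold or more and 0 lower, and the list median was 1.71 against −0.03 over all genes. The arginine-cleaving enzyme arginase 1 (Arg1) read 11.31 untreated and 14.66 with IL-4, where it was brighter than 99.9% of probe sets. Chil3, a chitinase-like lectin also called Ym1, went from 11.95 to 14.33. The mannose receptor Mrc1 went from 11.14 to 13.35, 4.61-fold. These were already bright in untreated cells and stood near the top of the array with IL-4.

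Other members started lower. The membrane protein gene Tmem26 read 8.81 and 13.10, or 19.5-fold, and its second probe set differed by 4.70. The galactose-type lectin Mgl2 went from 7.41 to 10.33 and its relative Clec10a, at 8.66 untreated, differed by 1.34. Flt1, a receptor for vascular endothelial growth factor, went from 8.04 to 11.31, and its second probe set differed by 3.84. Rnase2a, an eosinophil-type ribonuclease, and Cd209e, a relative of the lectin DC-SIGN, came from 5.54 and 4.74 untreated, both below the floor, to 9.83 and 6.76. Of 8 chitinase-like, resistin-like and ribonuclease genes above the floor 3 were higher and 0 lower, with a median of 0.64. Chil4, counted among those 3, stayed below the floor on both wild type arrays, at 5.03 and 6.09. It passed the floor only on the array labelled Dap12-KO IL-4, so its difference lies within the background range.

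Some well-known members differed by less than 2-fold. Retnla, the resistin-like secreted protein, read 11.89 and 12.54. Egr2, a zinc finger factor of the programme, read 13.67 and 13.80, Igf1 12.92 and 13.09, and the beta-glucan receptor Clec7a 13.64 and 14.39. These genes were bright on both arrays and stayed under 2-fold, although Retnla and Clec7a passed 1.5-fold, at 1.58-fold and 1.68-fold. Il1rn, the IL-1 receptor antagonist, was the 1 member with a negative difference, from 13.64 to 12.89. Its other 2 probe sets differed by −1.09 and −1.06, so it counts as lower by 2-fold when the median over probe sets is used.

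**Figure D2:**
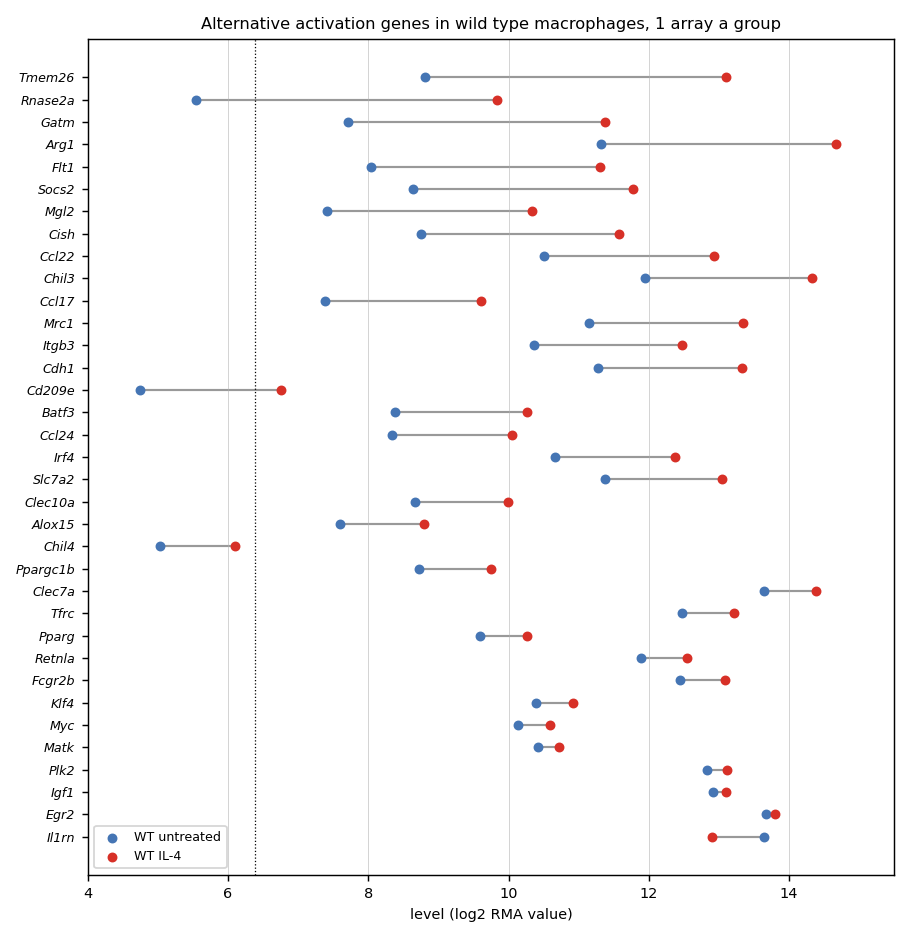
Levels of the 35 alternative activation genes on the wild type untreated array (blue) and the wild type IL-4 array (red), on a log2 RMA axis, 1 value each, ordered by difference; the dotted line is the floor of 6.39. All genes but Il1rn lie to the right with IL-4, and the gap runs from 4.29 for Tmem26 and Rnase2a to 0.13 for Egr2.

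The receptor and kinase genes of the pathway itself differed by less than 2-fold. Of 16 members of the IL-4 receptor and JAK-STAT list above the floor, 0 were higher and 0 lower at 2-fold, and the list median was −0.02. The receptor chain Il4ra read 9.20 untreated and 9.32 with IL-4, and Stat6 11.23 and 10.88. Among the kinases Jak1 read 10.53 and 10.48, Jak3 7.05 and 7.13, and Tyk2 9.43 and 9.15. Jak2 stood out from them, from 10.97 to 11.85. Il13ra1, the receptor chain shared with IL-13, read 9.81 and 9.11, and the phosphatase Ptpn6, known as SHP-1, 11.69 and 10.89.

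Feedback inhibitors of cytokine signalling were higher in several cases. SOCS proteins bind receptors or kinases and mark them for degradation, and PIAS proteins bind STAT factors. Of 12 such genes 5 were higher by 2-fold and 0 lower, with a median of 0.27. Socs2 read 8.63 and 11.77, with 2.27 as the median difference over its 6 probe sets. Cish read 8.75 and 11.57, and Socs1, the inhibitor of JAK kinases, came from 6.16, below the floor, to 7.74. Socs6 went from 9.83 to 11.04 and Socs3 from 9.37 to 10.55. The other SOCS genes and the 4 PIAS genes lay between −0.30 and 0.29.

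Arginine uptake and a pair of arginine-using enzymes stood out in arginine metabolism. Of 16 genes of arginine, polyamine and creatine metabolism above the floor, 3 were higher and 0 lower. Besides Arg1 these were the arginine transporter Slc7a2, from 11.38 to 13.04 with 2.31 as the median over its probe sets, and Gatm, which makes the precursor of creatine from arginine, from 7.72 to 11.38. The median of the list was 0.13. Arg2, the mitochondrial arginase, and Ass1, which rebuilds arginine from citrulline, were just below the floor in untreated cells, at 6.37 and 6.38, and lower on the other arrays.

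Transcription factor genes of the programme were higher in a few cases. Irf4, a factor needed for alternative activation, read 10.66 and 12.37, while its dim second probe set differed by 0.50. Batf3, an AP-1 family factor, went from 8.38 to 10.27. Kdm6b, a histone H3 lysine demethylase also called Jmjd3, went from 10.33 to 11.52. Nfil3, a repressor known from the clock and from IL-4 responses, went from 7.29 to 8.61, and Ppargc1b, a coactivator of mitochondrial genes, from 8.72 to 9.75. Pparg itself read 9.59 and 10.26, and Klf4 10.39 and 10.91. On the other side, the interferon factors Irf7 and Irf8 read 9.42 and 11.23 untreated and 8.21 and 10.24 with IL-4, and Id3 went from 7.81 to 6.47. Of 36 macrophage transcription factors 2 were higher and 2 lower. Of 30 immediate early and AP-1 genes 1 was higher and 0 lower, with a median of 0.14.

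**Figure D3:**
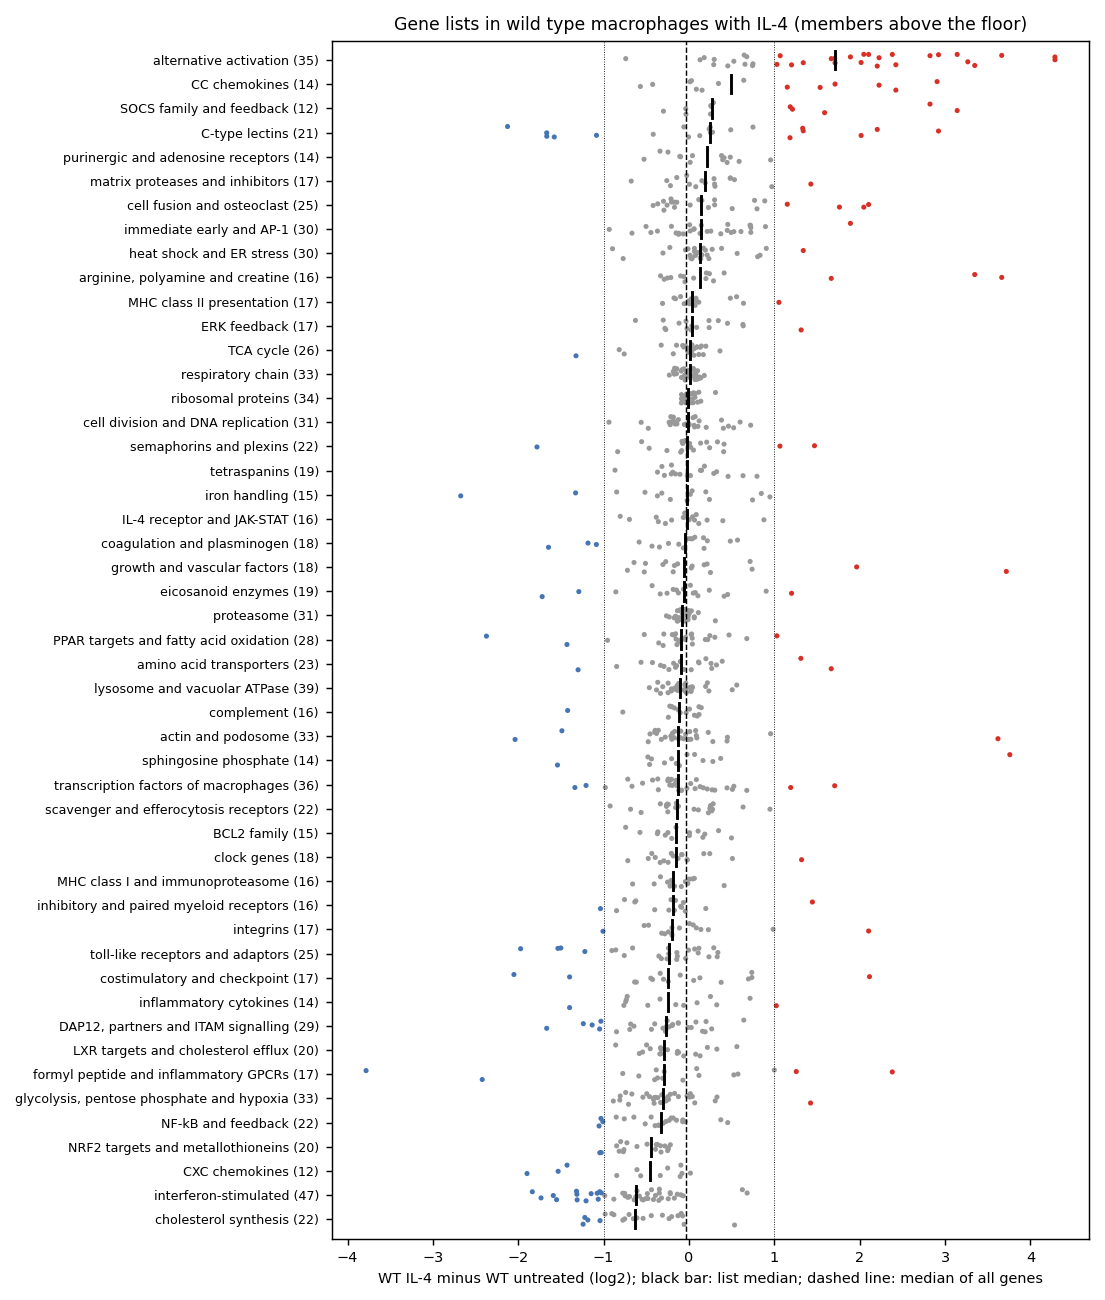
Differences (horizontal axis, log2, wild type IL-4 minus untreated) of the members above the floor of each gene list with at least 12 such members, 1 point a gene, with list medians as black bars and the median of all genes, −0.03, as a dashed line. The alternative activation list stands apart at a median of 1.71, and the interferon and cholesterol synthesis lists lie lowest at −0.62 and −0.63.

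Genes of macrophage fusion and of osteoclasts, the bone-resorbing fused cells, were in part higher. Of 25 above the floor 4 were higher and 0 lower at 2-fold, 15 had positive and 10 negative differences, and the median was 0.14. The cell adhesion protein E-cadherin (Cdh1) read 11.28 and 13.33, and the integrin chain Itgb3 10.37 and 12.47. The fusion protein gene Ocstamp went from 11.45 to 13.21, and the chemokine Ccl2, which also draws fusing cells, is the other member at 2-fold. Jup, which encodes the catenin plakoglobin, read 8.47 and 9.24, the tetraspanin Cd81 10.56 and 11.36, carbonic anhydrase 2 (Car2) 11.54 and 12.43, and the proton pump subunit Atp6v0d2 12.84 and 13.35. Those 4 lay between 1.4-fold and 2-fold. Dcstamp, another fusion protein gene, was the lowest member, from 12.21 to 11.79. The osteoclast genes Ctsk, Nfatc1, Acp5 and Mmp9 differed by −0.37, −0.30, −0.17 and −0.14.

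Chemokines differed by family. CC chemokines mostly draw monocytes and T cells, and CXC chemokines of the ELR type draw neutrophils. Of 14 CC chemokines above the floor 6 were higher by 2-fold, 0 were lower, and the median was 0.49. The monocyte attractant Ccl7 went from 7.22 to 10.12 and Ccl2 from 10.31 to 11.46. The T cell attractants Ccl22 and Ccl17, which share the receptor CCR4, read 10.50 and 7.39 untreated and 12.93 and 9.61 with IL-4. Ccl24, an eosinophil attractant, went from 8.33 to 10.04 and Ccl4 from 11.11 to 12.65. Ccl5 was the lowest, from 9.48 to 8.91, while Ccl6 and Ccl9 were above 14 on both arrays and differed by 0.03 and 0.01.

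In the CXC list, which also holds the CX3C chemokine Cx3cl1, 3 of 12 were lower, 0 higher, and 11 had negative differences, with a median of −0.45. Cxcl14 read 9.10 with IL-4, a difference of −1.90, and its second probe set differed by −1.87. The neutrophil attractants Cxcl3 and Cxcl2 read 11.04 and 13.39 untreated and 9.51 and 11.96 with IL-4, and Cxcl1 went from 9.51 to 8.94. Of 10 chemokine receptors 0 were higher and 1 lower, with a median of −0.27. The decoy-like receptor Ccrl2 went from 10.57 to 8.58, and Ccr2, the receptor for Ccl2 and Ccl7, from 8.18 to 8.98. Whether the CC and CXC families differ could not be tested with 1 array a group.

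C-type lectins, receptors for sugars of microbes and hosts, went both ways. Of 21 above the floor 6 were higher and 5 lower. Higher were Mgl2, Mrc1, Cd209e and Clec10a, given above, with Clec4a3 (10.41 and 11.74) and Clec1b (6.49 and 7.67). The 5 lower ones follow. Mincle (Clec4e) read 13.77 and 11.64, its partner Clec4d 14.02 and 12.35, and dectin-2 (Clec4n) 11.21 and 9.63. Clec5a, which signals through DAP12, read 11.52 and 9.86, and Cd302 11.84 and 10.75. Mincle, Clec4d and dectin-2 signal through the Fc receptor gamma chain. Receptors of microbial sugars were on both sides, as Mrc1 and Clec7a had positive differences.

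**Figure D4:**
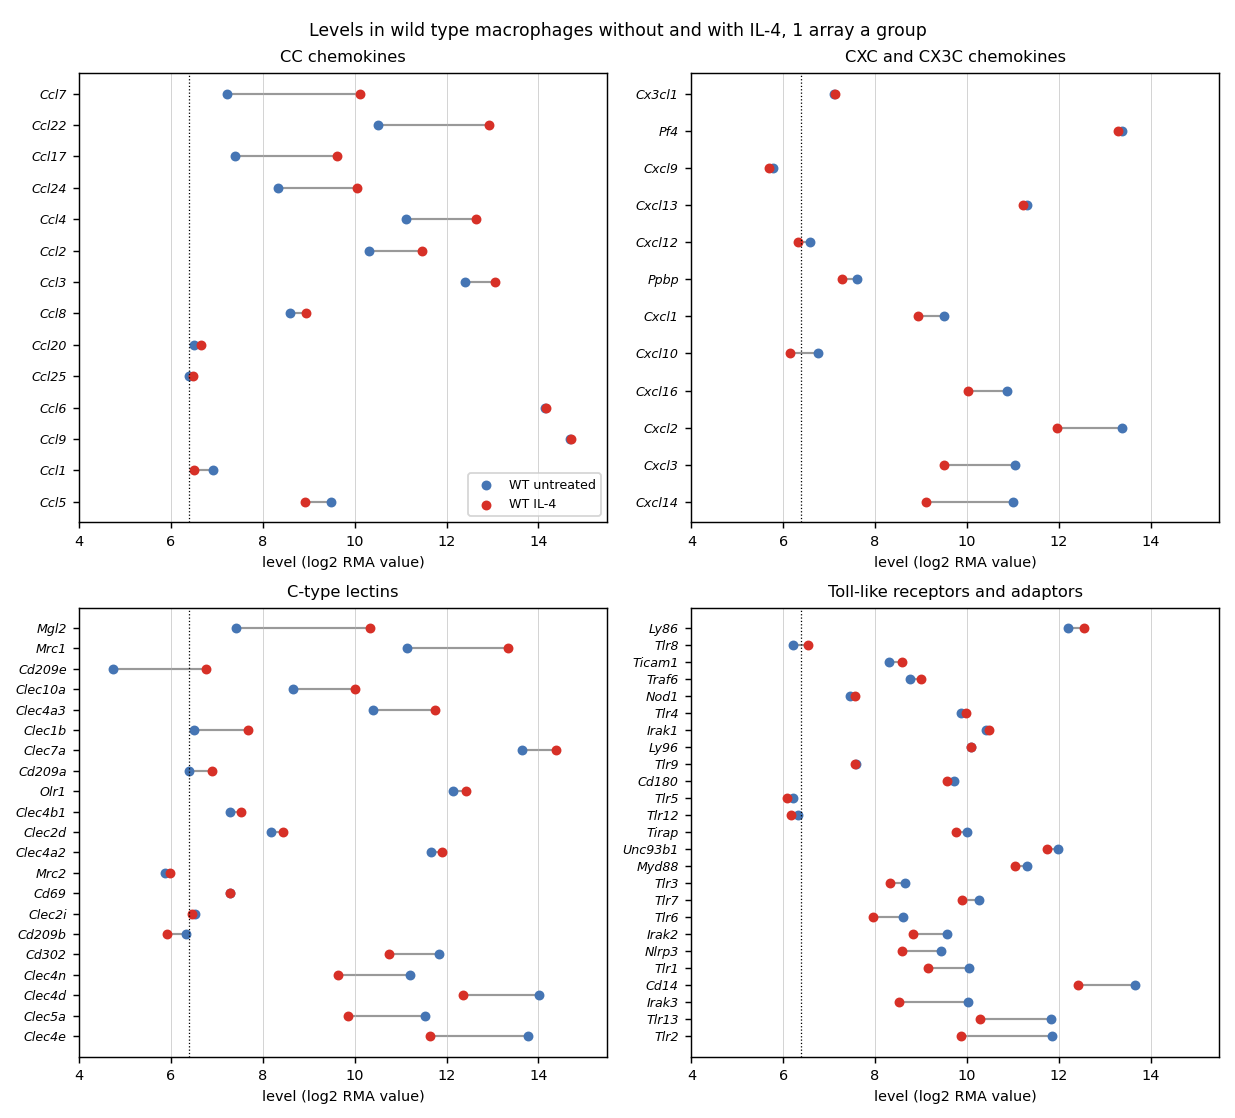
Levels on the wild type untreated (blue) and IL-4 (red) arrays in 4 groups, on a log2 RMA axis, 1 value each, ordered by difference; the dotted line is the floor of 6.39. CC chemokines reach a difference of 2.91 at Ccl7, CXC chemokines −1.90 at Cxcl14, lectins run from 2.92 to −2.13, and toll-like receptor genes reach −1.97 at Tlr2.

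Some sensors of microbes were lower. Of 25 toll-like receptor and adaptor genes 4 were lower and 0 higher, 7 had positive differences, with a median of −0.24. Tlr2, the receptor for bacterial lipoproteins, read 11.84 and 9.87. Its partners Tlr1 and Tlr6 read 10.05 and 8.61 untreated and 9.14 and 7.95 with IL-4. Tlr13, a receptor for bacterial ribosomal RNA, went from 11.82 to 10.29. The LPS co-receptor Cd14 went from 13.65 to 12.43, while Tlr4 itself read 9.88 and 9.99. Irak3, an inhibitor of toll-like receptor signalling, went from 10.03 to 8.53.

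Of the genes counted, the lowest difference belonged to Fpr2, a receptor for formylated bacterial peptides. It read 10.26 untreated and 6.47 with IL-4, just above the floor, which is 13.8-fold. Haptoglobin (Hp), which binds free haemoglobin, went from 12.11 to 9.43, and Gpr84, a receptor for medium-chain fatty acids, from 12.25 to 9.83. The brain-type fatty acid binding protein Fabp7 went from 11.30 to 8.93. Fabp3 went from 9.37 to 7.94, but its second probe set differed by −0.27 and the median over both was −0.85. The surface glycoprotein gene Cd24a went from 12.40 to 10.34 with −1.71 in its second probe set. Each of these genes was well above the floor in untreated cells. In the same list of inflammatory G protein-coupled receptors, Ltb4r1, a receptor for leukotriene B4, went the other way, from 7.92 to 10.30, and the prostaglandin E2 receptor Ptger2 from 8.87 to 10.13. Of its 17 members 2 were higher and 2 lower.

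Of 22 NF-kB subunit and feedback genes 20 had negative differences, 3 were lower by 2-fold, 0 higher, and the median was −0.33. Over all genes counted 1.25% were lower by 2-fold and the median was −0.03. Those 3 were the nuclear IkB protein gene Nfkbiz (10.22 and 9.16), the inhibitor Tnip1 (11.72 and 10.69) and the kinase Ikbke (11.43 and 10.42). Cytokines were mixed, with 1 higher and 1 lower of 14. Il1b went from 8.89 to 9.91, next to Il1a, which differed by 0.72, and the T cell ligand Tnfsf9 went from 8.84 to 7.45.

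Interferon-stimulated genes were lower across the list. They are induced by type I interferon and encode antiviral enzymes and sensors. Of 47 measured members, all above the floor, 13 were lower by 2-fold and 0 higher, 45 had negative differences and the median was −0.62. At 1.5-fold these were 25 lower and 2 higher. The RNA-sensing synthetases Oas3 and Oas2 read 8.27 and 9.24 untreated and 6.43 and 7.50 with IL-4. Ifit1 and Ifit3, which bind foreign RNA, went from 9.13 to 7.54 and from 8.69 to 7.14. Rsad2, known as viperin, read 11.53 and 10.38. The 2 members above 0 were Ifi204 (9.34 and 10.02) and Mx1 (7.54 and 8.17). Oas1a, Ifi35 and Ifi27, above 12 in untreated cells, differed by −0.58, −0.22 and −0.35, while Rtp4, at 11.85 and 10.54, was lower by 2-fold in its brightest probe set and differed by −0.45 in the second.

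In 10 of the 25 interferon-stimulated genes with 1 promoter entry, the 250 upstream bases held the interferon response letters, GAAA and GAAA with any 2 bases between, on either strand, against 212 of 8234 genes counted (2.58%). The list was drawn up for response to interferon, so the share is a description of it. Among all genes lower by 2-fold 11 of 103 held them, and among the higher genes 5 of 96. Those 11 include Ifit1, Ifit3, Oas3, Rsad2, Gbp2 and Slfn5 of this same list, so their share is not separate from that of the list. In 1 promoter of the list such a match overlapped a STAT6-type one. The promoters of Oas3 (chr5:120777660-120777909, minus strand), Ifit1 (chr19:34640639-34640888, plus strand, 2 matches) and Rsad2 (chr12:26456453-26456702, minus strand) are shown as those of named members of the list, with the matches in capitals.
Oas3: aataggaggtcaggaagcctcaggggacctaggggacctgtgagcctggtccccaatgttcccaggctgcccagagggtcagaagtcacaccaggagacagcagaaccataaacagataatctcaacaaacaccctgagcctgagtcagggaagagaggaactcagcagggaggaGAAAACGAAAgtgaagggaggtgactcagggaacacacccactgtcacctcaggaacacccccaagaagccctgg
Ifit1: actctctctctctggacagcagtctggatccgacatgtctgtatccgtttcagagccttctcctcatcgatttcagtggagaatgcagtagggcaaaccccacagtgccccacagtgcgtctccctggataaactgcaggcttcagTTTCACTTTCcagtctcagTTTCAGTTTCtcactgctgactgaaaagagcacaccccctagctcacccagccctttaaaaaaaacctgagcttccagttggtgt
Rsad2: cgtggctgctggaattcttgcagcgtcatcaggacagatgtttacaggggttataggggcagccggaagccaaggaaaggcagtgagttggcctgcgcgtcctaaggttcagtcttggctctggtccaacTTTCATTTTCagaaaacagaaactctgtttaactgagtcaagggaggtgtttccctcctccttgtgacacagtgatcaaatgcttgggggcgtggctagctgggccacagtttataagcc
The capitals in Ifit1 and Rsad2 are matches on the opposite strand and therefore read as TTTC pairs. In Ifit1 they lie 104 and 85 bases before the start.

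Cholesterol synthesis enzymes were lower together. These genes are controlled by the sterol-sensing factor SREBP2, encoded by Srebf2. Of 22 genes 21 had negative differences, 4 were lower by 2-fold, 0 higher, and the median was −0.63. At 1.5-fold 12 were lower. The late enzyme Sc5d read 11.61 and 10.36, squalene synthase (Fdft1) 11.83 and 10.65, and the demethylase Cyp51 11.74 and 10.69. Farnesyl diphosphate synthase (Fdps) read 9.74 and 8.52, but its second probe set, below the floor on both wild type arrays, differed by 0.01. With the median over probe sets, 1 of 22 was lower by 2-fold. Dhcr7, the last enzyme of a branch, was the 1 gene above 0, from 9.40 to 9.94. Srebf2 read 9.42 and 9.35. The SRE-type letters CACCCCAC were in 1 of the 15 single-entry promoters, that of Hmgcs1. Targets of LXR, the receptor for oxysterols, had a median of −0.29, with 0 of 20 at 2-fold in either direction. Abcg1, a cholesterol exporter, was the highest of them (11.80 and 12.36).

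Antioxidant genes formed another group on the lower side. NRF2, encoded by Nfe2l2, switches on enzymes of glutathione and thioredoxin metabolism, and metallothioneins bind zinc and other metals. All 20 genes of this list above the floor had negative differences, from −1.05 to −0.22, with 2 lower by 2-fold, 9 at 1.5-fold and a median of −0.44. Metallothionein 2 (Mt2) read 11.98 and 10.94, and its neighbour Mt1 11.93 and 11.21. The mitochondrial superoxide dismutase Sod2, also an NF-kB target, read 13.65 and 12.62. For glutathione synthesis, the cystine carrier Slc7a11 went from 10.42 to 9.57 and Gclm from 12.23 to 11.47. Srxn1 and Txnrd1, of the peroxiredoxin and thioredoxin cycle, read 13.26 and 13.81 untreated and 12.49 and 13.20 with IL-4. Most of these differences are under 2-fold, and it is their shared sign that the counts describe. Over all genes counted the median was −0.03.

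**Figure D5:**
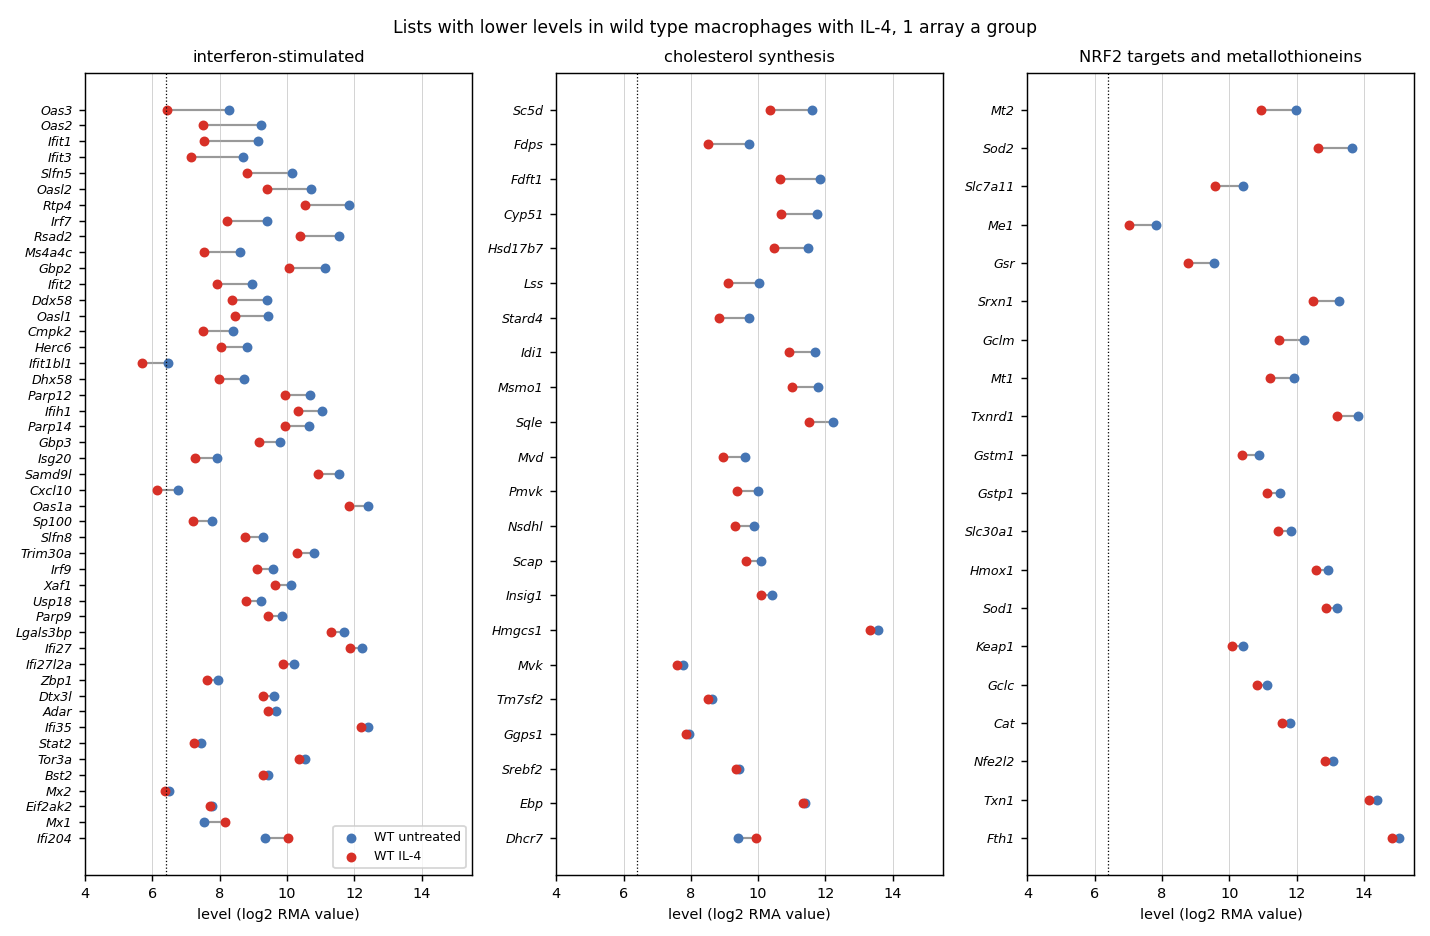
Levels on the wild type untreated (blue) and IL-4 (red) arrays of interferon-stimulated, cholesterol synthesis and NRF2 or metallothionein genes above the floor, on a log2 RMA axis, 1 value each; the dotted line is the floor of 6.39. With IL-4, 45 of 47, 21 of 22 and 20 of 20 genes lie to the left of their untreated level.

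Energy metabolism showed few differences. Of 33 glycolysis, pentose phosphate and hypoxia genes 26 had negative differences, with a median of −0.31, 1 higher and 0 lower at 2-fold. The liver-type phosphofructokinase Pfkl read 9.70 and 8.82, Pdk1 9.52 and 8.71, and transaldolase (Taldo1) 13.36 and 12.55. Ndrg1, a hypoxia-induced gene, went the other way, from 8.48 to 9.90. The 33 respiratory chain genes stayed between −0.23 and 0.18. In the TCA cycle list, Acod1, the enzyme that makes itaconate, went from 12.10 to 10.78 and Idh1 from 12.10 to 11.34, while the list median was 0.02. Fatty acid oxidation and PPAR target genes had a median of −0.09, with Cpt1a, the entry enzyme of mitochondrial oxidation, at 9.90 and 8.94.

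Lipid mediators and their receptors included some of the larger values. S1pr3, a sphingosine phosphate receptor, came from 5.94, below the floor, to 9.70, although its second probe set differed by 1.46 and the dimmest by 0.04. S1pr1 went from 8.18 to 6.64, and the median of 14 sphingosine phosphate genes was −0.13. In the eicosanoid list, prostaglandin E synthase (Ptges) went from 8.48 to 6.76 and prostaglandin D synthase (Hpgds) from 7.68 to 6.386, just below the floor. The 12/15-lipoxygenase Alox15 went from 7.59 to 8.79 and prostacyclin synthase (Ptgis) from 11.04 to 11.94. Of 19 members 1 was higher and 2 lower.

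Among secreted factors, endothelin 1 (Edn1), a vasoconstrictor peptide, read 8.63 and 12.35. Csf1, the growth factor of macrophages, went from 8.73 to 10.70, and the median over its 4 probe sets was 1.27. The platelet growth factor gene Pdgfa read 10.32 and 11.04 and Hbegf 12.07 and 12.81. Over 18 growth and vascular factors the median was −0.05, so these were single genes. Over 17 matrix proteases and inhibitors it was 0.19. The matrix collagenase Mmp13 went from 12.97 to 14.40 and Mmp10 from 7.81 to 8.78. On the side of coagulation, the protein C receptor Procr read 12.64 untreated and differed by −1.65, thrombomodulin (Thbd) went from 7.80 to 6.71 and the protease inhibitor Serpinb2 from 12.45 to 11.26. Both Procr and Thbd encode cofactors for activation of protein C, and the tissue factor gene F3 read 11.64 and 12.21.

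Surface molecules that speak to T cells went in different directions. Pdcd1lg2, which encodes the checkpoint ligand PD-L2, went from 6.56 to 8.67, and Cd72 from 8.78 to 10.22. Fc receptor-like Fcrls read 9.02 and 10.59, and the inhibitory receptor Fcgr2b 12.44 and 13.08. The MHC class II list had a median of 0.04, with H2-DMa, a chaperone of peptide loading, at 9.87 and 10.93 and 16 other members under 2-fold. Of 17 costimulatory and checkpoint genes 1 was higher and 2 lower, with a median of −0.24, and of 8 Fc receptor genes 1 was higher, with a median of 0.07. Of 16 inhibitory and paired myeloid receptors 14 had negative differences, with a median of −0.19. Pirb, an inhibitory receptor for MHC class I, went from 11.27 to 10.23. Among 29 genes of the DAP12 pathway, from receptors that pair with it to the kinases after it, 5 were lower, 0 higher and 22 had negative differences, with a median of −0.26. Besides Clec5a these were Sirpb1a (9.32 and 8.09), Trem3 (7.26 and 6.21, the latter below the floor), the Src family kinase Fgr (11.78 and 10.75) and Ptk2b (10.88 and 9.74), whose dim second probe set differed by 0.15.

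Few other surface and adhesion genes reached 2-fold. Of 17 integrin genes 1 was higher (Itgb3) and 1 lower, Itgal, the chain of LFA-1, from 11.41 to 10.40. Among 22 semaphorin and plexin genes, guidance cues that immune cells also carry, Sema4b went from 8.49 to 9.96 and Sema7a from 7.69 to 8.75, with 0.44 as the median over the probe sets of Sema7a. Sema4d went from 10.85 to 9.07, while its other probe sets differed by −0.75 and −0.07. Of 33 actin and podosome genes 1 was higher (Tuba8) and 2 were lower, Arap3 and the filopodial motor Myo10, the latter from 9.65 to 8.16. None of the 19 tetraspanin genes or the 22 scavenger and efferocytosis receptors reached 2-fold in either direction, with medians of −0.02 and −0.14. The haemoglobin scavenger receptor Cd163 was the highest of the latter, from 7.32 to 8.27. The dendritic cell list had a median of 0.08, with Batf3 as the 1 gene of 10 at 2-fold. The resident cavity macrophage list had a median of −0.10, with the adhesion receptor P-selectin (Selp) from 7.19 to 8.81.

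Iron handling and nutrient transport showed single genes. Of 15 iron genes 0 were higher and 2 lower, haptoglobin and the iron exporter ferroportin (Slc40a1), from 7.63 to 6.30, which is below the floor. The transferrin receptor Tfrc, which takes iron in, went from 12.47 to 13.21. Among 23 amino acid transporters, Slc38a9, a lysosomal arginine sensor, went from 9.28 to 10.59 and Slc43a2, a carrier of neutral amino acids, from 12.03 to 10.73. The complement list held 1 lower gene of 16, factor B (Cfb), from 8.15 to 6.72. In 39 genes for lysosomal enzymes and the proton pump 0 reached 2-fold or 1.5-fold, and the median was −0.11.

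Stress and growth genes stayed mostly near 0. Of 30 heat shock and endoplasmic reticulum stress genes 24 had positive differences, with a median of 0.13 and 1 higher, the disulphide isomerase Pdia4, from 8.38 to 9.72 with 0.71 as the median over its probe sets. The inducible heat shock genes Hspa1a and Hspa1b went the other way, by −0.77 and −0.90. Of 17 genes of ERK feedback 1 was higher, the EGF receptor inhibitor Errfi1, from 10.05 to 11.37. The 31 cell division genes and the 15 genes of the BCL2 family, which govern cell death, had 0 at 2-fold and medians of −0.01 and −0.15. The same held for 14 purinergic and adenosine receptors, with a median of 0.21, and 16 genes of MHC class I and the immunoproteasome, with a median of −0.18. The 18 clock genes had a median of −0.16, with Nfil3 as the 1 gene at 2-fold.

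Several of the largest differences lay in genes of no list or far from macrophage biology. Ddx4, an RNA helicase of germ cells, read 4.58 untreated, above only 4.10% of probe sets, and 11.71 with IL-4, above 95.5%. It has 1 probe set on the array. The other germ cell genes did not follow. Of 8 above the floor only Ddx4 reached 2-fold, and Dppa3, Piwil2 and Tdrd7 differed by −0.79, −0.63 and −0.57. Plekhf1, an endosomal and lysosomal adaptor, went from 6.85 to 10.41. The alpha tubulin Tuba8 came from 6.25, below the floor, to 9.87 with 2.34 in its second probe set. Il31ra, the receptor for IL-31, went from 6.80 to 9.94 with 2.45 in its second probe set. Slamf1, a self-binding receptor of immune cells, came from 5.96, below the floor, to 9.13, while its second probe set read 5.35 and 6.85. Wwc1, a regulator of the Hippo pathway, went from 6.53 to 9.56, with 1.61 as the median over its probe sets, and Fgl2, a fibrinogen-like protein, from 7.87 to 10.31. Kbtbd11 read 7.24 and 9.63 in its brightest probe set only, as the next one differed by −0.06. On the lower side stood Vsig8 (9.11 and 6.84), Arap3 (9.12 and 7.08, with −0.76 in its second probe set), Cracdl (10.70 and 8.85) and Gngt2 (9.17 and 7.33). So did Treml4 (7.80 and 5.94, the latter below the floor) and Ncf1, a subunit of the phagocyte oxidase (12.87 and 11.03, with −1.63 in its second probe set).

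The same IL-4 difference was read on the pair of arrays labelled Dap12-KO. There all 15 genes with the highest wild type differences were higher, by 0.56 (S1pr3) to 5.23 (Tmem26). Of the 15 with the lowest 14 were lower, the exception being Vsig8. The respiratory chain genes were also all lower on that pair, from −0.04 (Uqcrc1) to −0.66 (Sdhc). In wild type they lay between −0.23 and 0.18. A lower sign on that pair is therefore not particular to the genes lower in wild type. The share of all genes lower there was not computed. The array labelled Dap12-KO IL-4 had a narrower spread of values than the others, with a middle 50% spanning 2.54 against 3.25 and 3.24 on the wild type arrays, so sizes are not compared here.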

How the data were processed

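Total RNA of 4 macrophage samples was amplified in 2 cycles and hybridised to 1-colour Affymetrix arrays, per the labels' protocols. The authors deposited 1 log2 value per probe set and array, and RMA is the tool named in the submitters' processing notes. Its version is not given in the sources used here. Scanner files were not used here. RMA as commonly run gives arrays the same distribution, but the spread of the deposited values differed between arrays. GEO's annotation of the platform named 1 gene for 34945 of 45101 probe sets, several for 932 and none for 9160, and 64 were controls. Symbols were brought up to date with RefSeq's gene table of GRCm38.p6, which matched 34741.

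Samples were grouped by title. Differences, counts and medians for 62 gene lists were computed with Python 3.11.15, numpy 2.4.6 and pandas 2.3.3, and the script was tested on simulated data. Plots used matplotlib 3.10.9, and cyclic loess used limma 3.58.1 in R 4.3.3. The rule for named genes took Tyrobp, the 15 highest and 15 lowest differences above the floor, the same with both wild type arrays above it, list members at 2-fold, the 4 largest differences in a list, and IL-4 receptor, kinase and STAT6 genes. Genes given as markers, contrasts or relatives of these (such as Arg2, Klf4, Ccl6, Tlr4 and Srebf2), and the promoters shown, were picked with their values known. The comparison, its members and the lists were chosen with earlier results of these data known. One further set of promoter letters is not reported here. Alternatives were 3 floors, 2 thresholds, 3 scalings and 3 treatments of probe sets.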

Additional observations from a re-analysis of the deposited data

Results flagged for a closer look

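Of the named genes that differed by 2-fold or more with IL-4 in wild type, 2 differed by 2-fold or more the other way on the arrays labelled Dap12-KO. Vsig8, an immunoglobulin family receptor gene, differed by −2.28 in wild type and by 1.07 there. Ndrg1 differed by 1.42 in wild type and by −1.14 there. The array labelled Dap12-KO IL-4 had a narrower spread of values than the other arrays, so sizes are not compared between the pairs. On the Dap12-KO pair the respiratory chain genes were also all lower, from −0.04 (Uqcrc1) to −0.66 (Sdhc). The part of that spread in the Vsig8 and Ndrg1 values was not tested, and their opposite signs are not read as an effect of genotype. With 1 array a group the difference between both responses was not tested.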

How the results depend on the processing

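Each group is 1 array, so no replicate could be left out and array noise has no measure; depth has no counterpart beyond the floor, near which sizes are uncertain. No paired analysis was possible because each group has 1 array and the labels give no replicate numbers. The threshold set the counts most. At 3-fold 61 genes were higher and 31 lower, with 3 SOCS and feedback genes higher, and 3 interferon-stimulated and 0 cholesterol synthesis genes lower. At 1.5-fold 387 genes were higher and 548 lower. In the lists 7 fusion genes and 2 interferon-stimulated genes were then higher, and 25 interferon-stimulated genes, 12 cholesterol synthesis genes and 1 alternative activation gene were lower. With the median over probe sets, 1 alternative activation gene (Il1rn) and 1 cholesterol synthesis gene were lower by 2-fold. With every probe set on its own 256 were higher and 242 lower. Under the other floors, cyclic loess, quantile normalization and median centring the counts of genes stayed between 129 and 165 higher and between 136 and 160 lower. With the median over probe sets 124 were higher and 120 lower, and with the brightest probe set over the wild type arrays 159 and 162. The median over probe sets shifted 16 of the 268 named genes by over 1.5-fold, and 1 (Ciita) shifted as much with the brightest probe set over the wild type arrays. Of the 129 at 2-fold, 0 changed sign under these scalings and probe set rules, 113 kept that size with the median over probe sets and 123 under cyclic loess. The 16 that did not keep it with that median were Kbtbd11, Cd302, Ptk2b, H2-DMa, Ddx58, Rtp4, Fdps, Fdft1, Cyp51, Fabp3, Pdia4, Sod2, Slc40a1, Itgal, Sema4d and Sema7a. With a floor at the 75th percentile the medians of the chitinase-like and CC chemokine lists were 1.52 and 1.15, and with no floor that of the chitinase-like list was 0.02, against 0.64 and 0.49. The cause of these shifts was not tested.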

Other observations

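The groups in these paragraphs were drawn up after the values had been seen, and are given as values only. Over all genes counted 1.21% were higher and 1.25% lower by 2-fold. Counts in groups chosen this way cannot be weighed against those shares. The cytokine receptor chain gp130 and chains of its type, not all of which pair with it, were grouped. Of 6 such genes above the floor 4 were higher and 0 lower, with a median of 1.17. The shared chain gp130 (Il6st) read 10.69 untreated and 12.22 with IL-4, with 1.97 in its second probe set. Il31ra, named above, differed by 3.14, and the granulocyte growth factor receptor Csf3r read 9.68 and 10.84. Lifr came from 5.37, below the floor, to 6.55, and its second probe set differed by −0.07. The chain for IL-6, Il6ra, differed by −0.16. In the IL-1 receptor family 2 of 5 were higher and 0 lower. Il1r1 read 7.46 and 9.22, though its second probe set differed by −0.13, the co-receptor Il1rap 8.43 and 9.42, and the IL-36 receptor Il1rl2 10.54 and 11.55, with 0.24 in its second probe set. Neither gene at 2-fold reached it in its second probe set.

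The phagocyte oxidase, which makes superoxide, was lower in 2 of 6 genes and higher in 0, with a median of −0.39. Its catalytic subunit gp91phox (Cybb) read 13.76 and 12.69, with −1.67 in its second probe set, and its organizer p47phox (Ncf1) differed by −1.83. The other membrane subunit, Cyba, differed by −0.20. In fatty acid synthesis 3 of 13 genes were lower and 1 higher. The acetyl-CoA synthetase Acss2 read 8.13 and 6.48, the elongase Elovl6 8.05 and 6.91 and the desaturase Fads1 10.67 and 9.55, while Fads3 went from 7.82 to 9.33 and Fasn differed by −0.45. For retinoids, the retinoic acid enzyme Aldh1a2 went from 8.19 to 10.15 and the carrier Rbp4 came from 5.16, below the floor, to 6.90. They were the 2 of 12 such genes at 2-fold, and the list median was 0.02.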
